A study of Mus musculus with 6 samples.

Results

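The AP-1 genes Fos, Fosb, Fosl1, Fosl2, Jun, Junb, Jund and Atf3 were chosen by name and are 8 of the 55487 genes listed in the table. RNA was measured in vascular endothelial cells (VECs) of the neonatal mouse retina to compare animals that had lost the clock gene Bmal1 from these cells with controls. The control group (n = 3) was tdTomato FL/+;Pdgf-icreER, with no floxed Bmal1 allele in its stated genotype, and the Bmal1;CKO group (n = 3) was Bmal1 FL/FL;tdTomato FL/+;Pdgf-icreER. Animals of both groups received tamoxifen daily from P0.5 to P2.5 and were collected at P7.5, so Cre activity, the reporter and tamoxifen were common to both. Retinas were dissociated with collagenase A and DNase1, and live cells positive for GFP, made by the Pdgf-icreER transgene, and for tdTomato, made after Cre recombination, were sorted as VECs. Deletion was therefore limited to cells in which this Pdgf transgene is active, and the floxed Bmal1 alleles were present only in the mutant group. The table identifies the columns by genotype alone, so the libraries are called control 1 to 3 and Bmal1;CKO 4 to 6 here.

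AP-1 is a transcription factor made of pairs of basic leucine zipper (bZIP) proteins. A FOS protein pairs with a JUN protein, JUN proteins also pair with each other, and ATF3 pairs with JUN proteins or with itself. Several of the genes are immediate early genes, which are transcribed within minutes of a growth factor, cytokine or stress signal, often through MAP kinases, and whose mRNAs are short-lived. In blood vessels AP-1 is known for its part in responses to growth factors, inflammation and flow.

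Values are normalized counts, that is reads per gene divided by the size factor of the library. Reads on genes ranged from 71145068 to 104017800 per library, so 3 reads corresponded to 2.14 to 4.22 normalized counts. Markers of the labelled cell type were present, with 14 of 14 endothelial markers holding at least 10 reads in every library. The same was true of 9 of 9 microglia markers and 10 of 10 rod markers. The summed normalized counts of the microglia markers and of the rod markers were each above those of the endothelial markers in all 6 libraries, so the levels given are those of the sorted libraries and not of VECs alone. Xist had 3 to 6 reads in the control libraries and 312 to 2885 in the Bmal1;CKO libraries, and Ddx3y, on the Y chromosome, had 1004 to 1504 against 0 to 463, so the sex of the animals and the genotype cannot be told apart. Bmal1;CKO 4 and 6 held reads of both Xist (312 and 938) and Ddx3y (77 and 463), while Bmal1;CKO 5 had 2885 and 0. The sex signals thus also differed within the Bmal1;CKO group, and whether these libraries hold cells of more than 1 animal was not tested. Arntl, which encodes BMAL1, had 2706 ± 915 normalized counts in control (SD, n = 3) and 2314 ± 492 in Bmal1;CKO (SD, n = 3), so its estimate on the log2 scale was -0.19 (SE 0.36). Reads on the floxed exon were not analysed here. By droplet digital PCR, the study reports significantly fewer Bmal1 transcript copies in sorted mutant cells than in control cells.

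The promoters of the 4 AP-1 genes with the most RNA per kilobase are shown because they differ in the short sequences next to the transcription start. Each line gives the 200 bases before the RefSeq start (GRCm38.p6), 5′ to 3′ on the strand of the gene. Capitals mark the cyclic AMP response core TGACGT, read on either strand, the TATA box TATAAA, the CCAAT box, and a site of the MEF2 type. The windows are chr12:85473690-85473889 on the plus strand for Fos, chr4:95052223-95052422 on the minus strand for Jun, chr8:84978749-84978948 on the minus strand for Junb and chr1:191183334-191183533 on the minus strand for Atf3. The Atf3 start used here lies 34706 bases inside the interval of the gene.
Fos: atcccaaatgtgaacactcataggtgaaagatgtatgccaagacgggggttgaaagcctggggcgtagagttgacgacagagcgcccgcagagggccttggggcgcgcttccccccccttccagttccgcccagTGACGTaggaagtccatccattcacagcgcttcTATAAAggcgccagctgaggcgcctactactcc
Jun: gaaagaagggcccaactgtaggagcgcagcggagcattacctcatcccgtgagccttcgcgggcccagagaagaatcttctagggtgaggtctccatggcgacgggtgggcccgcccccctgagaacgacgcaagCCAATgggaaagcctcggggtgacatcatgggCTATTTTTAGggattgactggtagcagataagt
Junb: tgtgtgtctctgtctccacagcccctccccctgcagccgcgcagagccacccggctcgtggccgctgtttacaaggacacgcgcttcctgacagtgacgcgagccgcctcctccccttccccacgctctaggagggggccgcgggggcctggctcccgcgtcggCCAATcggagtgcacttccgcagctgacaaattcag
Atf3: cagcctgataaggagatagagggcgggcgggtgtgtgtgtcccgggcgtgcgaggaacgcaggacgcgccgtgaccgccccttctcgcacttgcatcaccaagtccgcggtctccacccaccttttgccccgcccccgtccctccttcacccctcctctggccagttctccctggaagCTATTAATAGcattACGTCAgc
Motifs were searched on both strands in the 250 bases before the start of 7 of the 8 genes, all except Fosl1. The RefSeq start of Jund lay 1210 bases before the interval in which its reads were counted, and that of Fosl2 lay 671 bases inside its interval, so these windows may not be next to the starts of the counted transcripts. Fos held TGACGT at -66 to -61 and TATAAA at -33 to -28, counted from the start. Atf3 held the same core on the other strand at -8 to -3. Across 32851 windows of this length, 6.47% held the core and 12.4% held TATAAA. The CCAAT box, in 33.8% of windows, lay at -65 to -61 in Jun and at -36 to -32 in Junb. A MEF2-type site, in 2.92% of windows, lay at -33 to -24 in Jun and -22 to -13 in Atf3. The GC box GGGCGG, in 32.7% of windows, was found in 5 of 7 AP-1 promoters and overlapped none of the other motifs. The AP-1 site TGANTCA was in 0 of 7 and in 6.75% of all windows. The E-box CACGTG, the letters bound by BMAL1 and CLOCK, was in 0 of 7 and in 6.02%, and the CArG box was in 0 of 7 and in 1.47%. Only exact matches within these 250 bases were counted, so sites further upstream or with other letters were not searched. The Jun sequence shown holds TGACATCA, for example, which the pattern TGANTCA does not match.

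The 6 abundant AP-1 genes had higher mean levels in the Bmal1;CKO than in the control libraries, and none of the AP-1 genes passed an adjusted p of 0.05. The pattern by library was shared. Fos, Fosb, Jun, Junb, Jund and Atf3 each had their lowest 2 values in control 2 and control 3, in 6 of 6 genes. Control 1 lay near or within the range of the Bmal1;CKO libraries, and it was the highest of the 6 libraries for 3 genes, Fosb, Jund and Atf3. Among the Bmal1;CKO libraries, number 6 was the lowest for 6 of these 6 genes. The share of all genes with these orders of libraries was not counted, so the pattern is not shown to be particular to AP-1 genes. Fosl1 and Fosl2 were scarce and did not share this pattern.

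**Figure D1:**
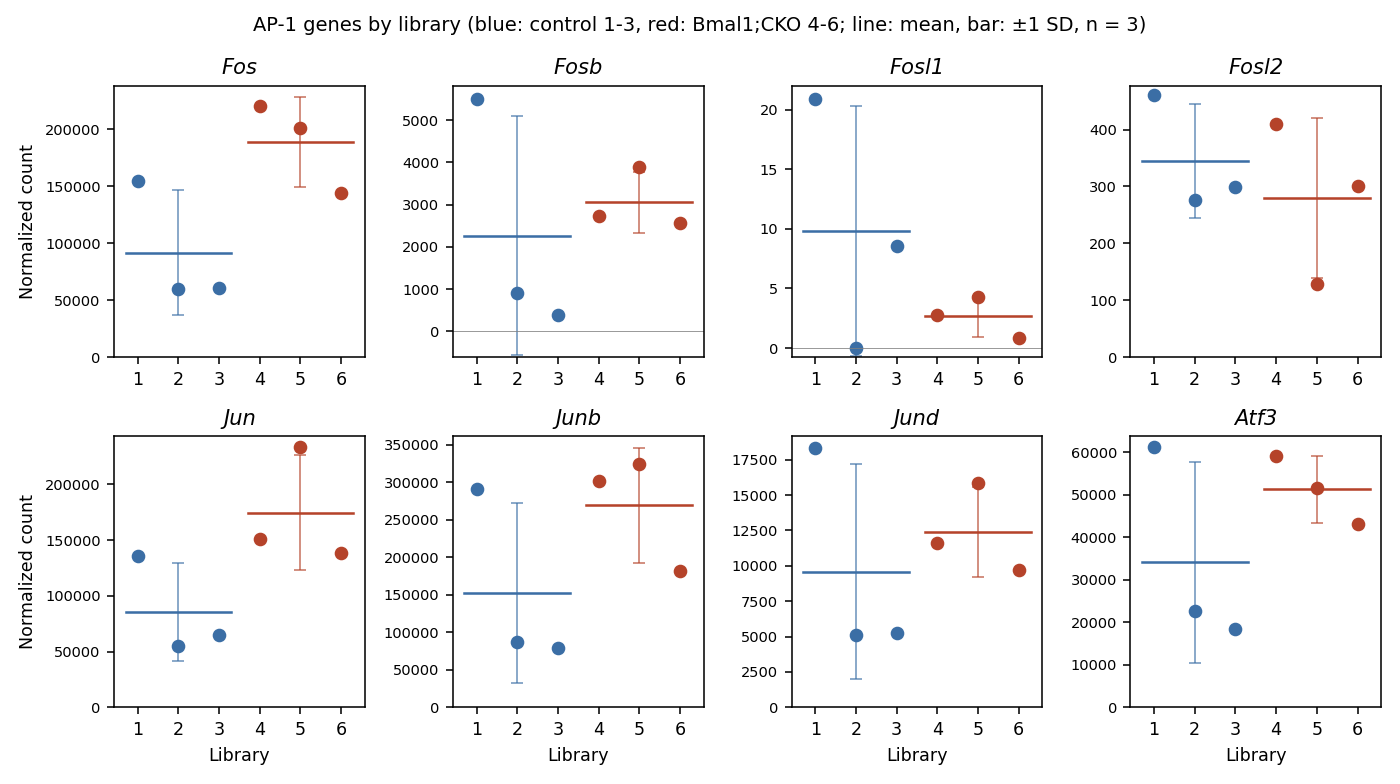
Normalized counts (vertical axis, linear) of the 8 AP-1 genes in each library (horizontal axis), with points for libraries, lines for group means and bars for 1 SD (n = 3 per group). For Fos, Fosb, Jun, Junb, Jund and Atf3, control 2 and control 3 lie below the other 4 libraries.

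Fos (ENSMUSG00000021250, chr12:85473890-85477273, plus strand, GRCm38), the founding partner of JUN proteins, had 154759, 59463 and 60585 normalized counts in control 1 to 3. In Bmal1;CKO 4 to 6 it had 220476, 201329 and 144026. Control 1 exceeded Bmal1;CKO 6, so the groups overlapped. The means were 91602 ± 54698 (SD, n = 3) and 188610 ± 39780 (SD, n = 3), a 2.06-fold ratio. The log2 fold change by limma-trend on log2(normalized count + 1) was 1.17 (SE 0.46, 95% interval 0.11 to 2.23), the unadjusted p was 0.0340 and the adjusted p 0.883. With 3 libraries against 3, an exact two-sided permutation test cannot go below p = 0.1, and for Fos it gave p = 0.2.

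Fosb (ENSMUSG00000003545, chr7:19302696-19310051, minus strand), a FOS protein with a stable short form, was the most variable of the abundant genes. Control 1 to 3 had 5510, 910 and 384 normalized counts, and Bmal1;CKO 4 to 6 had 2729, 3884 and 2559. The highest value of all was in control 1 and the lowest in control 3. The estimate was 1.27 on the log2 scale (SE 0.87, 95% interval -0.75 to 3.29, limma adjusted p = 0.883), while the ratio of the means was 1.35-fold, since the log scale gives the low value of control 3 more weight.

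Fosl1 (ENSMUSG00000024912, chr19:5447547-5455946, plus strand), which encodes FRA1, was almost not detected. It had 17, 0 and 12 reads in control 1 to 3 and 2, 5 and 1 reads in Bmal1;CKO 4 to 6. It was not tested, as fewer than 3 libraries reached 10 reads, and the 0 in control 2 allows up to 3 reads by counting error alone. Its interval shares 2767 bases with Ccdc85b on the opposite strand, which had 20500 to 54100 normalized counts, and whether the counting used strand is not given in the sources used here.

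Fosl2 (ENSMUSG00000029135, chr5:32135801-32157842, plus strand), which encodes FRA2, was the only tested AP-1 gene with a lower mean in Bmal1;CKO. Its values were 460, 276 and 299 in control and 409, 129 and 301 in Bmal1;CKO. The groups overlapped, and Bmal1;CKO 5 had the lowest value. On the log2 scale the estimate was -0.42 (SE 0.64, 95% interval -1.90 to 1.06, limma adjusted p = 0.907), and without Bmal1;CKO 5 it was 0.06.

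Jun (ENSMUSG00000052684, chr4:95049034-95052222, minus strand), the JUN protein that activates its own promoter, had 135546, 55393 and 65014 normalized counts in control 1 to 3. Its Bmal1;CKO values were 151246, 233568 and 138620. Jun was the only AP-1 gene whose groups did not overlap, by the small gap between control 1 and Bmal1;CKO 6. The means were 85318 ± 43764 (SD, n = 3) and 174478 ± 51561 (SD, n = 3), a 2.05-fold ratio. The log2 fold change was 1.11 (SE 0.43, 95% interval 0.10 to 2.12), with a limma unadjusted p of 0.0353 and adjusted p of 0.883. The exact permutation test gave p = 0.1, the smallest it can give. The antisense gene Junos, which shares 689 bases with Jun, had 73.3 to 365 normalized counts.

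Junb (ENSMUSG00000052837, chr8:84976910-84978718, minus strand), a JUN protein that can restrain JUN, had the most reads of the 8 genes in every group mean. Control 1 to 3 had 291189, 87586 and 78781 normalized counts, and Bmal1;CKO 4 to 6 had 301110, 324860 and 182289. Control 1 was close to Bmal1;CKO 4 and above Bmal1;CKO 6. The log2 difference was 1.05 (SE 0.57, 95% interval -0.28 to 2.38, limma adjusted p = 0.883).

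Jund (ENSMUSG00000071076, chr8:70698949-70700616, plus strand), usually the steadily expressed JUN protein of resting cells, had 18341, 5138 and 5226 normalized counts in control 1 to 3. Bmal1;CKO 4 to 6 had 11615, 15854 and 9693. Control 1 was above every Bmal1;CKO library. On the log2 scale the difference was 0.62 (SE 0.51, 95% interval -0.56 to 1.80, limma adjusted p = 0.883).

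Atf3 (ENSMUSG00000026628, chr1:191170296-191218039, minus strand), a stress-induced bZIP protein that acts mostly as a repressor, had 61301, 22759 and 18387 normalized counts in control 1 to 3. Bmal1;CKO 4 to 6 had 59115, 51585 and 43233. Here too control 1 was the highest library and the other control libraries were the lowest. Its estimate on the log2 scale was 0.79 (SE 0.46, 95% interval -0.28 to 1.85, limma adjusted p = 0.883).

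By limma-trend, 0 of the 7 tested AP-1 genes passed an adjusted p of 0.05, and 0% of the 20459 genes tested did. At an unadjusted p under 0.05, 2 AP-1 genes, Fos and Jun, were higher in Bmal1;CKO, against 3.17% of all genes tested, and 0 were lower, against 1.75%. The groups did not overlap for 1 AP-1 gene in the higher direction, against 6.62% of all genes, and for 0 in the lower direction, against 4.54%. The median log2 fold change was 0.11 over all genes tested, and the 6 positive AP-1 estimates lay between 0.62 and 1.27. With edgeR on the recovered reads the median of all genes was -0.03, the Jun estimate was 1.03 (edgeR unadjusted p = 0.0448) and the Fos estimate was 1.04 (edgeR unadjusted p = 0.0501), and those of Fosb and Jund were 0.44 and 0.38. Without shrinkage, DESeq2 also called 0 AP-1 genes, with 67 genes called in all. The share of unadjusted calls that were higher in Bmal1;CKO was 64.3% by limma, 50.1% by edgeR and 44.0% by DESeq2.

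The calls turned on single libraries. Without control 1, 6 of the 7 tested AP-1 genes had a limma unadjusted p under 0.05 in the higher direction, against 4.87% of the 20224 genes then tested, and 0 passed an adjusted p of 0.05. Those 6 genes were above control 2 and control 3 in all Bmal1;CKO libraries, as were 12.9% of all genes. The log2 fold change was then 2.34 (SE 0.43) for Fosb, 1.65 (SE 0.39) for Junb, 1.63 (SE 0.34) for Fos, 1.501 (SE 0.36) for Jun, 1.31 (SE 0.29) for Atf3 and 1.23 (SE 0.29) for Jund. Their limma adjusted p-values stayed above the threshold, with 0.271 for Fosb and 0.414 for Fos. The estimates were lower without control 3, at 0.42 for Fosb, 0.45 for Atf3 and 0.71 for Junb, and without control 2, at 0.31 for Jund, 0.86 for Jun and 0.94 for Fos. The count of AP-1 genes higher at a limma unadjusted p under 0.05 was 0 without control 2, control 3, Bmal1;CKO 4 or Bmal1;CKO 5, against 3.28%, 7.12%, 0.897% and 0.754% of all genes then tested. Without Bmal1;CKO 6, the remaining Bmal1;CKO libraries lay above all control libraries for 3 AP-1 genes, Fos, Jun and Junb, as they did for 10.7% of all genes. The spread within control was wider than within Bmal1;CKO for all 6 genes: the coefficient of variation was 59.7% against 21.1% for Fos and 124% against 23.6% for Fosb.

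**Figure D2:**
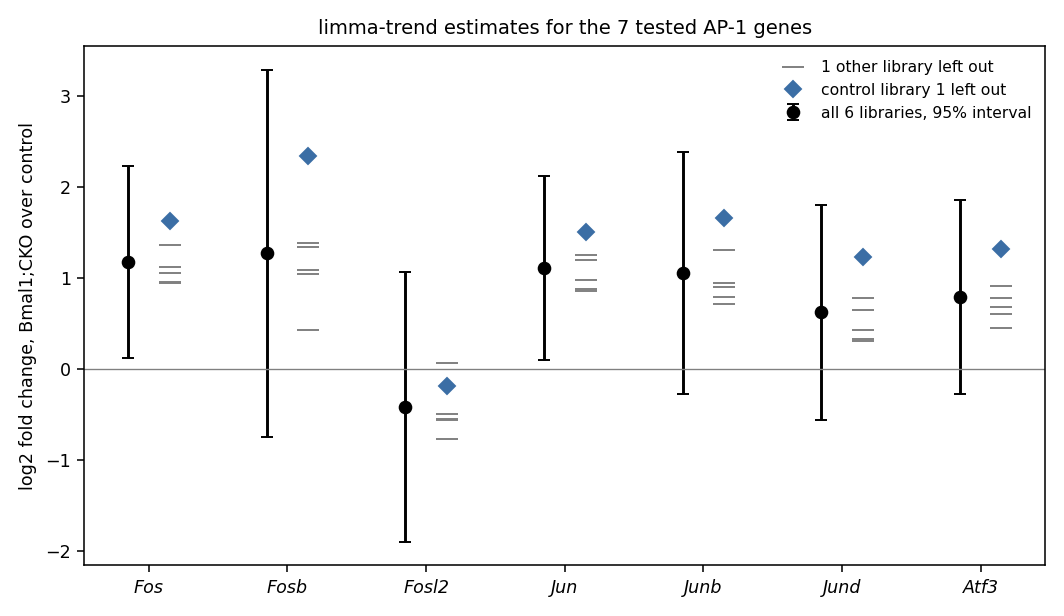
Log2 fold change of Bmal1;CKO over control (vertical axis) by limma-trend for the 7 tested AP-1 genes, with 95% intervals from all 6 libraries, and the estimates with 1 library left out. Only the Fos and Jun intervals lie above 0, and leaving out control 1 gives the highest estimate for the 6 abundant genes.

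The libraries differed in the RNA of other cell types along with the AP-1 genes, and in bulk samples fewer cells of a type and less RNA per cell cannot be told apart. The summed level of 9 microglia markers was 4103350, 1386180 and 1693790 normalized counts in control 1 to 3 and 3985840, 2714630 and 2013410 in Bmal1;CKO 4 to 6. As for the AP-1 genes, control 2 and control 3 were the lowest libraries and Bmal1;CKO 6 was the lowest of its group. Of these markers, 8 of 9 had a higher mean log2 level in Bmal1;CKO, 0 passed an unadjusted p of 0.05, and none was at 0 in all libraries. The summed level of 14 endothelial markers was 423367, 230688 and 208150 in control and 229167, 125431 and 265992 in Bmal1;CKO, with 14 of 14 estimates below 0 and 12 of 14 without control 1. The part of these cell types in the AP-1 values was not tested.

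**Figure D3:**
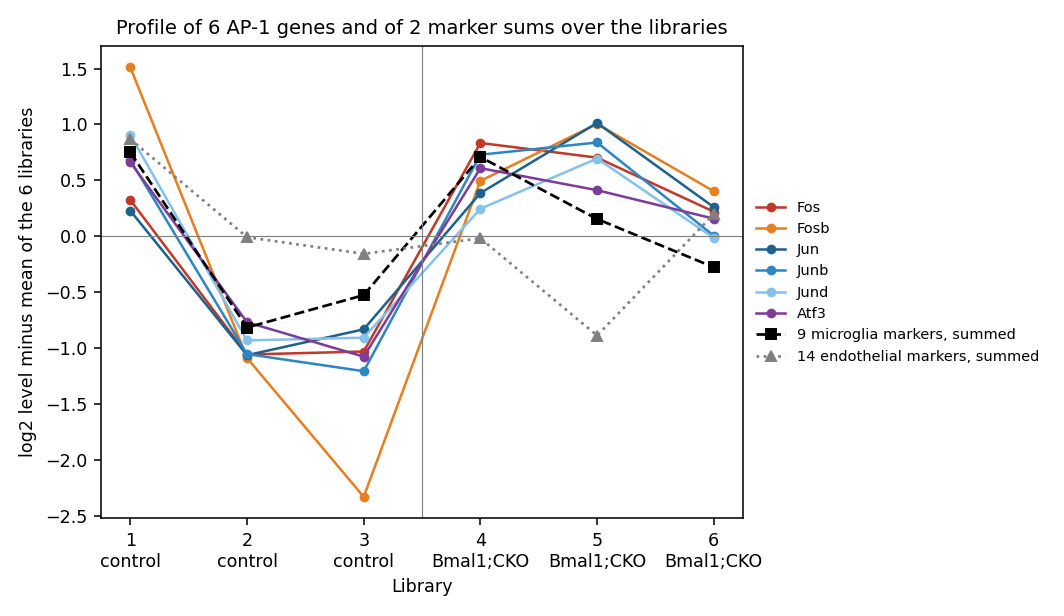
Log2 level minus the mean of the 6 libraries (vertical axis) by library (horizontal axis) for 6 AP-1 genes and for the summed microglia and endothelial markers. The AP-1 lines and the microglia line are all below 0 in control 2 and control 3. The endothelial line is slightly below 0 there, at -0.007 and -0.16, highest in control 1 and lowest in Bmal1;CKO 5. In Bmal1;CKO 6 the microglia line is at -0.28, below the AP-1 lines.

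Set against the microglia markers of the same library, a scale chosen after seeing the data, the Fos groups, which overlapped as normalized counts, did not overlap. Fos had 37.7, 42.9 and 35.8 normalized counts per 1000 of summed microglia markers in control 1 to 3 and 55.3, 74.2 and 71.5 in Bmal1;CKO 4 to 6. Control 1 was then in the range of the other control libraries. Junb had 71.0, 63.2 and 46.5 per 1000 in control and 75.5, 119.7 and 90.5 in Bmal1;CKO, also without overlap. Jun overlapped, with 33.0, 40.0 and 38.4 against 37.9, 86.0 and 68.8. On this scale 2 of 7 AP-1 genes, Fos and Junb, were higher without overlap, against 1.66% of all genes tested. Per summed endothelial markers, 3 of 7, Fos, Jun and Atf3, were higher without overlap, against 7.38%. No test was run on these ratios.

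Per kilobase of annotated exon, the order of levels was Junb, Fos, Jun, Atf3, Jund, Fosb, Fosl2 and Fosl1 in all 6 libraries. In control the mean levels were 84311 ± 66430 (SD, n = 3) normalized counts per kilobase for Junb, 38947 ± 23256 for Fos and 26754 ± 13724 for Jun. They were 15854 ± 10964 for Atf3, 5737 ± 4555 for Jund, 363 ± 452 for Fosb, 35.6 ± 10.4 for Fosl2 and 4.84 ± 5.17 for Fosl1. Neighbours in this order overlapped within 1 SD in control from Junb to Jund, and Jund and Fosb did not. In Bmal1;CKO the means were 148933 ± 42226 for Junb, 80191 ± 16913 for Fos, 54713 ± 16168 for Jun and 23821 ± 3688 for Atf3. There Fos and Jun overlapped within 1 SD, while Junb lay above Fos, and Jun above Atf3, by more than that. Of the FOS genes, Fosb stood at 0.239% to 1.34% of Fos per kilobase in a given library. The ratio of Fos to Jun per kilobase was 1.17 to 1.98 and did not separate the groups. That of Jund to Junb was 0.0683, 0.0636 and 0.0719 in control 1 to 3 and 0.0418, 0.0529 and 0.0577 in Bmal1;CKO 4 to 6. Every Bmal1;CKO library was below every control library in this ratio, which was chosen with the values in view and was not tested. The share of all gene pairs that separate in this way was not counted. The ratio of all FOS to all JUN genes overlapped, with 0.3112, 0.3696 and 0.3855 in control and 0.4266, 0.3287 and 0.411 in Bmal1;CKO.

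The bZIP genes whose products pair with AP-1 proteins or compete with them had a median near that of all genes when control 1 was included. Over all genes tested, 56.55% had a positive estimate. Of 15 such genes, all tested, 10 had a positive and 5 a negative estimate, with a median log2 fold change of 0.19 against 0.11 over all genes. Without control 1 the list median was 0.49, against 0.00 over all genes. At an unadjusted p under 0.05, 1 was higher, against 3.17% of all genes, and 0 were lower, against 1.75%. The 1 higher gene was Creb5, a bZIP partner of JUN that binds cyclic AMP response elements. It had 25.8, 332 and 99.3 normalized counts in control and 447, 700 and 520 in Bmal1;CKO. Its log2 fold change was 2.504 (SE 0.95, limma adjusted p = 0.883), and control 1 was its lowest library. By edgeR its estimate was 1.87 (edgeR unadjusted p = 0.0710), and with 1 library left out the limma estimate ranged from 1.58 to 3.40.

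Upstream of the AP-1 genes, 24 of 24 MAP kinase pathway genes and transcription factors were tested, with 13 positive and 11 negative estimates and a median log2 fold change of 0.03. None had an unadjusted p under 0.05 by limma, where 3.17% of all genes were higher and 1.75% lower at that p. Map2k2, the MEK2 kinase and the most abundant of them, had 20829 ± 7869 normalized counts (SD, n = 3) and 22638 ± 4525 (SD, n = 3) in the control and mutant groups.

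Of 13 feedback genes that dephosphorylate MAP kinases, dampen the pathway or promote mRNA decay, 11 had a positive estimate, against 56.55% of all genes tested. Their median log2 fold change was 0.51. At an unadjusted p under 0.05, 2 were higher, against 3.17% of all genes, and 0 were lower, against 1.75%. Dusp1, a nuclear MAP kinase phosphatase, had 77974, 36336 and 38929 normalized counts in control and 98437, 93485 and 85283 in Bmal1;CKO. Control 1 was again the highest control, though below all Bmal1;CKO libraries, and the log2 fold change was 0.94 (SE 0.36, limma adjusted p = 0.883). Dusp5, an ERK phosphatase, had 2226, 2750 and 2175 in control and 3560, 3765 and 3706 in Bmal1;CKO, with a log2 fold change of 0.63 (SE 0.24, limma adjusted p = 0.883).

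Genes known as AP-1 targets in other tissues gave 1 call at an unadjusted p under 0.05. Of 20, 16 were tested and 11 of these had a positive estimate, against 56.55% of all genes, with a median log2 fold change of 0.38. Over all genes, 3.17% were higher and 1.75% lower at an unadjusted p under 0.05. Only Ccnd1, the cyclin that drives entry into the cell cycle, had an unadjusted p under 0.05, with 5519 ± 1384 normalized counts in control (SD, n = 3) and 9139 ± 1552 in Bmal1;CKO (SD, n = 3). Its log2 fold change was 0.74 (SE 0.28, limma adjusted p = 0.883). The matrix metalloproteinases Mmp3 and Mmp10 were at 0 in all libraries.

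Other immediate early genes had the highest median of the 6 lists around AP-1. Of 14 tested, 13 had a positive estimate, with a median log2 fold change of 0.96, 5 were higher at an unadjusted p under 0.05 and 0 were lower, where 56.55% of all genes had a positive estimate and 3.17% were higher at that p. Egr1, a zinc finger factor induced with Fos, had 70396, 21870 and 27724 normalized counts in control and 106124, 81222 and 88712 in Bmal1;CKO, an estimate of 1.39 on the log2 scale (SE 0.45). Egr2 had 3889, 3889 and 4655 in control and 10195, 7938 and 8370 in Bmal1;CKO, an estimate of 1.09 (SE 0.23). In contrast to the AP-1 genes, control 1 was not high for Egr2. The limma adjusted p was 0.883 for Egr1 and 0.825 for Egr2, and DESeq2 gave Egr2 an adjusted p of 0.0166. Nr4a1, an orphan nuclear receptor, had 2423, 2660 and 2143 normalized counts in control and 11764, 4683 and 4961 in Bmal1;CKO. Control 1 was not high for Nr4a1 either. The log2 fold change of Nr4a1 was 1.44 (SE 0.39), and without Bmal1;CKO 4 it was 1.01. Klf6 had a log2 fold change of 1.03 (SE 0.36). Arc, a neuronal immediate early gene, had 0, 28.8 and 12.9 normalized counts in control and 212, 111 and 208 in Bmal1;CKO.

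**Figure D4:**
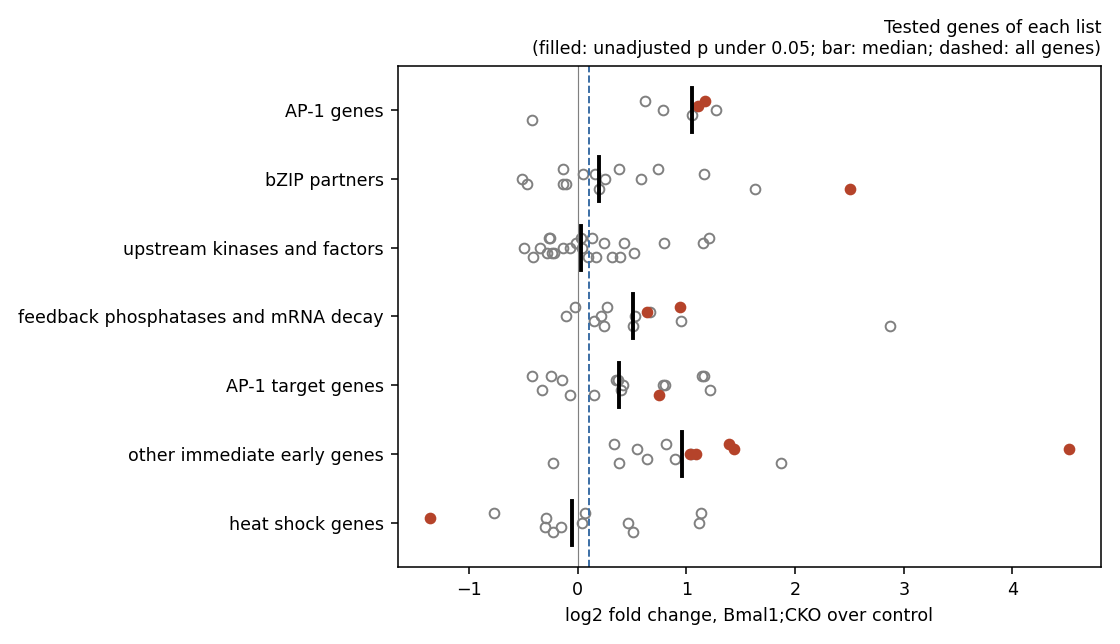
Log2 fold change of Bmal1;CKO over control (horizontal axis) by limma-trend for each tested gene of the AP-1 list and of 6 other lists (rows), with medians as bars and the median of all genes as a dashed line. The medians of the AP-1 genes and of the other immediate early genes lie furthest to the right, and those of the upstream and heat shock genes lie near 0.

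Heat shock genes, which respond to stress through HSF1, were divided evenly in direction. Of 12, all tested, 6 had a positive and 6 a negative estimate, with a median log2 fold change of -0.05. Over all genes, 56.55% had a positive estimate, and at an unadjusted p under 0.05, 3.17% were higher and 1.75% lower. Hspa8, the constitutive HSC70 chaperone, was the only one with an unadjusted p under 0.05 and was lower, with 7352, 4554 and 4945 normalized counts in control and 2190, 2902 and 1531 in Bmal1;CKO. Its log2 fold change was -1.36 (SE 0.33, limma adjusted p = 0.856). No gene of any of these lists passed an adjusted p of 0.05 by limma. With edgeR the list medians were 0.09 for bZIP partners, 0.02 for upstream genes, 0.20 for feedback genes, 0.03 for AP-1 targets, 0.49 for other immediate early genes and -0.15 for heat shock genes, beside -0.03 over all genes. Without control 1 the limma median of the other immediate early genes was 1.39.

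Likeness was measured as the root mean square difference, on the log2 scale after centring, from the mean profile of the 7 AP-1 genes that had 10 reads or more in each library. Atf3 was closest to that mean, at 0.063, followed by Jund at 0.19, Junb at 0.20, Fos at 0.23, Jun at 0.32, Fosb at 0.66 and Fosl2 at 0.88. Each of these 7 genes is part of that mean, so their distances cannot be set beside those of other genes. Over the 6 libraries, the 5 closest other genes of 15603 were Gm49331 at 0.153, Hyal1 at 0.157, Nupr1 at 0.181, Gm43172 at 0.187 and Dusp27 at 0.190. Hyal1, a lysosomal hyaluronidase, had 1958, 629 and 464 normalized counts in control and 1259, 1418 and 1101 in Bmal1;CKO. Nupr1, a stress-response chromatin protein, had 3705, 961 and 1032 in control and 2795, 2806 and 1723 in Bmal1;CKO. With 1 library left out, between 0 and 2 of these 5 genes were still among the closest 5.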

How the data were processed

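RNA of FAC-sorted P7.5 retinal VECs was amplified (Smart v4 kit) and made into Nextera XT libraries. The authors used FastQC, Trimmomatic, featureCounts and DESeq2 on GRCm38/mm10. The deposited values are a signal: counts divided by a size factor per library from DESeq2. Every value was a whole number of reads within 0.01 reads after rescaling, for 100% of values. The authors' deposited mean, log2 fold change, its standard error, Wald score and p-value columns were not used. The column numbers disagree with the sample numbers of the labels, so columns were used by genotype only. The study gives 3 animals per group, but Bmal1;CKO 4 and 6 held reads of both Xist and Ddx3y, so the animals behind each library are uncertain. P-values measure the spread between these libraries.

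The 20459 genes with 10 or more reads in 3 or more libraries were tested with limma-trend (limma 3.58.1, R 4.3.3) on log2(normalized count + 1), without a block. Adding 1 makes changes of low genes smaller than adding 0.5 would, as for Arc (4.52 against 4.88). For Arc edgeR with TMM scaling gave a smaller estimate still, 3.66. P-values were adjusted by Benjamini-Hochberg over all genes tested. Alternatives were edgeR 4.0.16, DESeq2 1.42.0 (both on recovered reads), limma-voom, other pseudocounts and filters, and each library left out. Single genes were also compared by exact permutation over the 10 splits of 3 against 3. Exon lengths came from GENCODE M21 and promoters from RefSeq GRCm38.p6. Tables and figures used matplotlib 3.10.9, scipy 1.17.1, numpy 2.4.6 and pandas 2.3.3 in Python 3.11.15. The members and gene lists were chosen with earlier results of these data known. Named genes were the members and, of each list, genes with an unadjusted p under 0.05 and groups that did not overlap (at most 5), or otherwise the most abundant. The 5 genes closest in pattern, the targeted gene and the sex genes were also named. A further marker list was not analysed here. Limits from counts of 0 cover counting error only.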

Additional observations from a re-analysis of the deposited data

How the results depend on the processing

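The direction of the 6 higher AP-1 genes was kept under every fit, filter, pseudocount and left-out library that was run. The count of AP-1 genes at an unadjusted p under 0.05 was 2 by limma-trend and 1 by edgeR with TMM scaling or with DESeq2 size factors, and it ranged from 0 to 6 with 1 library left out, with 6 only without control 1. The count whose groups do not overlap was 1, and ranged from 1 to 6 with 1 library left out, with 6 without control 1 and 3 without Bmal1;CKO 6, where 12.9% and 10.7% of all genes were higher without overlap. It was 2 per summed microglia markers and 3 per summed endothelial markers, scales added after seeing the data. The count of all genes at an adjusted p under 0.05 was 0 by limma-trend (648 higher and 359 lower at an unadjusted p under 0.05), 0 by edgeR, 67 by DESeq2, 1 with genes of at least 1 read in total, 1 with genes of at least 10 reads in every library, and 0 to 6 with 1 library left out. The cause of these differences was not tested. Of the 5 genes nearest in pattern, 0 to 2 stayed with 1 library left out. With 1 library left out, the log2 fold change ranged from -0.77 to 0.0615 for Fosl2, -0.0083 to 0.46 for Map2k2, -1.32 to 0.43 for Gfap and -1.69 to 0.20 for Hbb-bs. The medians of the 6 gene lists moved by less than the spread between libraries. No paired analysis was possible because the columns carry no replicate number that could be tied to the labels, so the fit with a replicate block was not run. With 3 libraries a group and a wide spread among the controls, differences of the size seen for Jund or Atf3 could not be told from 0.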

Other observations

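Markers of further cell types were read in the same libraries. Vwf, which marks endothelial cells, had 3852 ± 1056 normalized counts in control (SD, n = 3) and 2097 ± 860 in Bmal1;CKO (SD, n = 3), an estimate of -0.94 on the log2 scale (limma unadjusted p = 0.0468, adjusted p = 0.883). Cnga1, the rod cyclic nucleotide channel, was at 9295 ± 3460 (SD, n = 3) and 3762 ± 1754 (SD, n = 3), a log2 fold change of -1.37 (limma unadjusted p = 0.0178, adjusted p = 0.883). Of 10 rod markers, 10 had a negative estimate, with a median of -0.33. Sox9, a transcription factor of Müller glia and astrocytes, had 1879 ± 911 (SD, n = 3) and 4470 ± 1733 (SD, n = 3), a log2 fold change of 1.33 (limma unadjusted p = 0.0238, adjusted p = 0.883), and 6 of 6 tested Müller glia markers had a positive estimate, with a median of 0.43, which became 4 of 6 and 0.08 without control 1. Rgs5, a pericyte marker, had 17224 normalized counts in control 3 and 1626 to 3215 in the other libraries. The median log2 fold change of 8 tested pericyte markers was 0.88, and without control 1 it was -1.48, with 0 of 8 positive. That of 3 astrocyte markers was -0.43 and, without control 1, -0.65. Of 5 tested erythroid markers, 1 had a positive estimate, and 0 did without control 1.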
